A study of Homo sapiens with 24 samples.

Results

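Imprinted genes are genes expressed mainly or only from the copy inherited from 1 parent. The set described here holds 36 human imprinted genes and neighbours in imprinted domains, listed by symbol and found in both deposited count tables, out of 60671 genes listed in each. They lie in 19 domains. By textbook knowledge 20 are expressed from the paternal copy and 8 from the maternal copy, and the others are imprinted in some tissues or isoforms only or are neighbours. Membership used no measured value, though the list was drawn up with earlier results of these data known.

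The libraries were made from polyadenylated RNA of H1 and H9, which are established human embryonic stem cell lines, in 8 groups of 3. The 18 H1 libraries all carry the treatment label doxycycline and comprise CARHSP1 knockdown and nontargeting control primed cells, ZNF8 knockdown and nontargeting control naive cells, and ZIC2 knockdown and nontargeting control ectoderm cells at day 2 of differentiation. The 6 H9 libraries comprise primed and naive cells, with no genotype or treatment label. Primed cells resemble the epiblast after implantation and naive cells the epiblast before it. The labels give 1 maintenance medium, StemFlex, for every library, and give no separate conditions for naive culture. Nothing in the labels ties replicates to separate cultures, and each p-value therefore rests on a spread between libraries that may be technical. Line, doxycycline and handling differ together between H1 and H9 and cannot be told apart.

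Imprints are placed in the germ line as DNA methylation on 1 parental copy of a control region, and proteins such as ZFP57 and ZNF445 with TRIM28 keep that methylation while the rest of the embryonic genome is reprogrammed. Many imprinted genes act in fetal growth, the placenta and brain development. Naive human stem cells are known in the field for loss of imprint methylation in culture, which is why imprinted genes are often examined in them. Counts per gene do not tell the parental copies apart, so every value below is a total over both copies. In bulk samples fewer cells of a type and less RNA per cell cannot be told apart.

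Total counts per library lay between 6756704 and 20773963. Expression levels below are CPM, from 1 TMM scaling over all 24 libraries, so that folds of the separate fits can differ slightly from ratios of these means. CARHSP1 fell 7.81-fold in its knockdown (18.1 to 20.8 CPM against 148 to 152, adjusted p = 8.36e-29) and ZIC2 2.08-fold (263 to 272 CPM against 496 to 619, adjusted p = 1.18e-10). ZNF8 lay at 15.5 to 17.8 CPM in its knockdown against 17.8 to 23.5 in the control, a log2 change of −0.32 ± 0.13 (SE) that did not pass the test (adjusted p = 0.0664). The summed level of 11 naive markers was 801 to 825 CPM in naive H1 controls and 266 to 276 in naive H9 cells, against 75.4 to 88.4 and 58.0 to 66.7 in the primed groups, where KLF17 was at 0. The summed level of 9 neural ectoderm markers was 960 to 1110 CPM in ectoderm controls and 51.8 to 57.2 in primed controls.

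Between 23 and 26 of the 36 genes had a mean of at least 1 CPM in each group. GNAS, which encodes a G protein alpha subunit, had the highest level per length of the set in the primed and naive groups of both lines, with 75.8 RPKM in primed H1 controls and 57.2 RPKM in naive H9 cells. In ectoderm controls NNAT, which encodes a small membrane proteolipid of developing brain, was highest with 258 RPKM. The paternally expressed PEG3 and its neighbour ZIM2 had no counts in any group but naive H9 cells, where PEG3 had 10 counts over the group and ZIM2 had 1. MEG8, a maternally expressed long noncoding RNA, had 15 counts in all, and all of them came from replicate 3 of the ZIC2 knockdown.

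**Figure D1:**
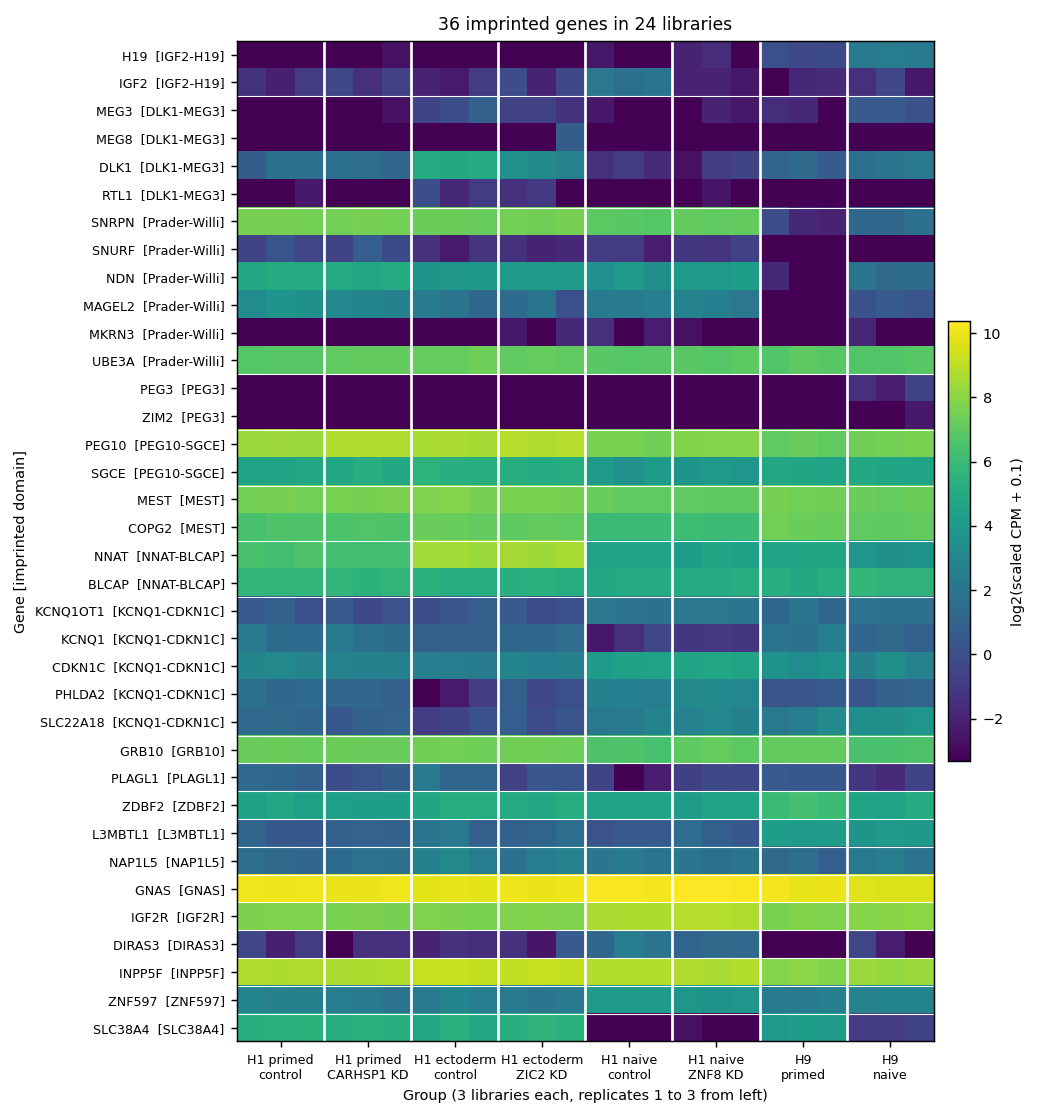
Level of the 36 imprinted genes (rows, with their domain) in each of the 24 libraries (columns, 3 per group), as log2 of scaled CPM plus 0.1. SNRPN and NDN are darker in the 6 H9 libraries than in the H1 libraries, and SLC38A4 is dark in the naive groups of both lines.

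Naive and primed cells were compared in each line, and the comparisons share no library. In H9, 28 of the 36 genes could be tested, 12 were higher in naive cells and 11 lower (edgeR, adjusted p under 0.05), where 25.4% of all 15761 genes tested were higher and 26.1% lower. In H1 controls, 28 could be tested, 10 were higher and 14 lower, against 35.0% higher and 36.1% lower of all 15874 genes tested. The median log2 change of the tested members was 0.23 in H9 and −0.38 in H1, against 0.00 over all genes in each, and their median absolute change was 0.60 in H9 and 0.98 in H1, against 0.39 and 0.60 over all genes. Of the paternally expressed genes, 6 were higher and 5 lower of 13 tested in H9, and 4 were higher and 9 lower of 15 tested in H1. Of the maternally expressed genes, 3 were higher and 2 lower of 7 in H9, and 4 were higher and 1 lower of 5 in H1. In each line both parental classes thus had members that were higher and members that were lower.

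Set side by side, 10 genes moved the same way in both lines: SLC22A18, NAP1L5 and IGF2R were higher in naive cells, and MEST, COPG2, NNAT, KCNQ1, GRB10, PLAGL1 and SLC38A4 were lower. Another 6 genes, DLK1, SNRPN, NDN, MAGEL2, PEG10 and BLCAP, were higher in naive H9 and lower in naive H1 cells, while CDKN1C and GNAS were lower in H9 and higher in H1. The shares of all genes called the same way or opposite ways in both lines were not counted. These numbers therefore do not tell whether imprinted genes differ from other genes in this. The difference between the lines in the naive minus primed change was tested in 1 fit of 12 libraries. It passed for 17 of 30 members tested, 6 with the H1 change above the H9 change and 11 with it below, against 23.6% above and 26.2% below of all 17140 genes tested.

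**Figure D2:**
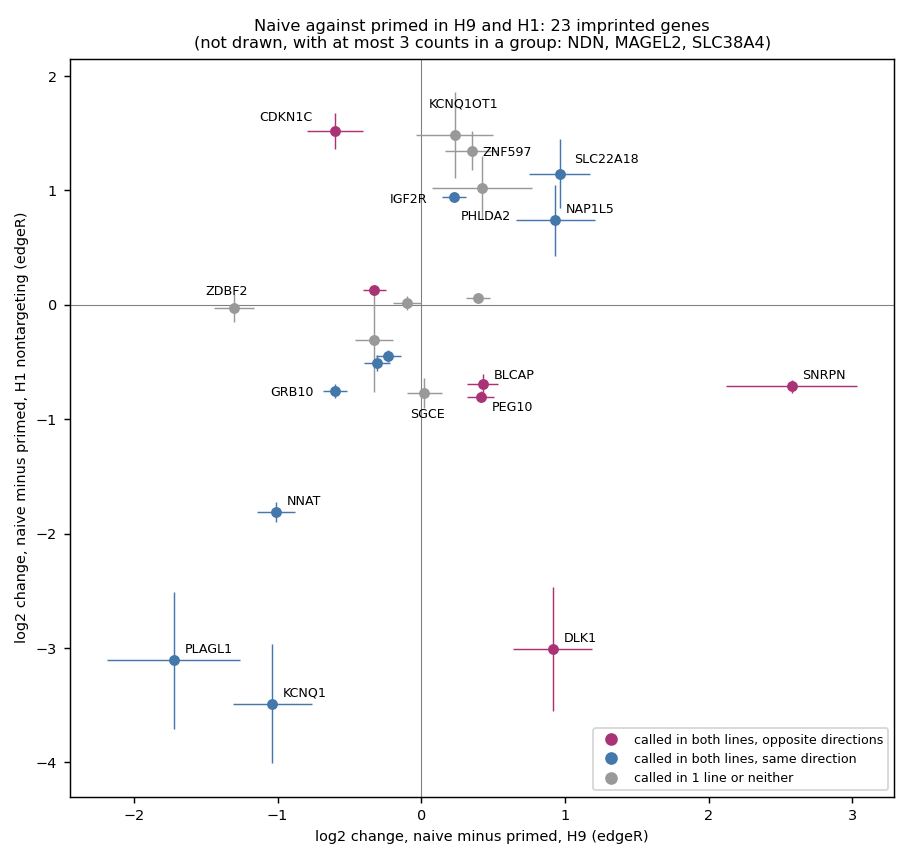
Log2 change from primed to naive cells in H9 (horizontal) and in H1 nontargeting controls (vertical), 1 point per gene with SE bars from edgeR, for the 23 genes tested in both lines that had more than 3 counts in each of the 4 groups. DLK1 and SNRPN lie at the lower right, higher in naive H9 and lower in naive H1, and CDKN1C lies at the upper left with the opposite directions.

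Several genes of the Prader-Willi domain on chromosome 15 were lower in H9 than in H1 in both states. The domain is a cluster whose paternally expressed genes are silent on the maternal copy and are lost in Prader-Willi syndrome. SNRPN (chr15:24823637-24978723, plus strand, GRCh38) encodes a small nuclear ribonucleoprotein subunit. In primed H1 controls it lay at 189, 193 and 181 CPM and in naive H1 controls at 123, 115 and 108 CPM. In H9 it lay at 0.81, 0.202 and 0.151 CPM in primed and 2.31, 2.30 and 3.20 CPM in naive cells. No H9 library came near any H1 library, and within H9 the naive libraries lay above the primed ones. The difference between primed H9 and primed H1 was −8.71 ± 0.18 on the log2 scale (SE, adjusted p = 1.91e-26), −9.97 without replicate 1 of primed H9, and that between naive H9 and naive H1 −5.45 ± 0.14 (adjusted p = 4.30e-24).

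NDN (chr15:23685400-23687330, minus strand), which encodes necdin, a growth suppressor of neurons, showed the same order. It lay at 28.1, 34.0 and 32.5 CPM in primed H1 controls and 12.2, 16.1 and 11.3 in naive ones. Primed H9 cells had 0.187, 0 and 0 CPM, 3 counts over the group, and naive H9 cells 3.72, 2.52 and 2.82 CPM. Primed H1 controls had 406 times the level of primed H9 cells, with a 95% interval of 138 to 1971 that covers counting error only.

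MAGEL2 (chr15:23643549-23647867, minus strand), which encodes a regulator of a ubiquitin ligase in protein trafficking, had no counts in primed H9 cells and 10.2, 13.7 and 11.6 CPM in primed H1 controls, at least 150-fold higher against a floor of 3 counts over the group. In naive cells it lay at 0.975, 1.43 and 1.13 CPM in H9 and 5.15, 5.00 and 5.69 in H1. SNURF, which shares a transcript with SNRPN, had no counts in either H9 group and 0.594 to 1.06 CPM in primed H1 controls. SNHG14, the long host transcript of this domain and not 1 of the 36 genes, was also low in H9, with means of 920 CPM in primed and 1199 CPM in naive H1 controls but 1.68 and 19.4 CPM in primed and naive H9 cells, so that, unlike SNRPN, it was higher in naive than in primed H1 (log2 0.36 ± 0.04). MKRN3 had at most 4 counts in any group.

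UBE3A (chr15:25333728-25439056, minus strand), the ubiquitin ligase gene of Angelman syndrome, is imprinted in neurons only and lies in the same domain. Its mean was 111 ± 2.88 CPM (SD, n = 3) in primed and 113 ± 5.05 in naive H1 controls, and 112 ± 12.1 in primed and 105 ± 5.19 in naive H9 cells. The groups overlapped in every comparison of lines and states. The log2 change from primed to naive H9 was −0.10 ± 0.10 (adjusted p = 0.419), but with trends in GC content and length removed it was 0.22 and passed as higher (adjusted p = 0.00543).

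Naive H9 cells were higher than primed H9 cells in SNRPN by 2.58 ± 0.45 on the log2 scale (adjusted p = 9.85e-05). NDN had 40.0 times the primed level (95% interval 13.3 to 198, counting error only, adjusted p = 5.34e-07), and MAGEL2 was at least 15.2-fold higher (adjusted p = 1.80e-05). In H1 the same genes were lower in naive cells, SNRPN by 1.64-fold, NDN by 2.39-fold and MAGEL2 by 2.24-fold. The difference between lines in this change passed for each (adjusted p = 3.77e-09 for SNRPN, 1.23e-11 for NDN and 1.27e-08 for MAGEL2). All 3 counts of NDN in primed H9 and the highest SNRPN value came from replicate 1 of primed H9. Without it the SNRPN change was 3.81 (adjusted p = 1.28e-05).

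**Figure D3:**
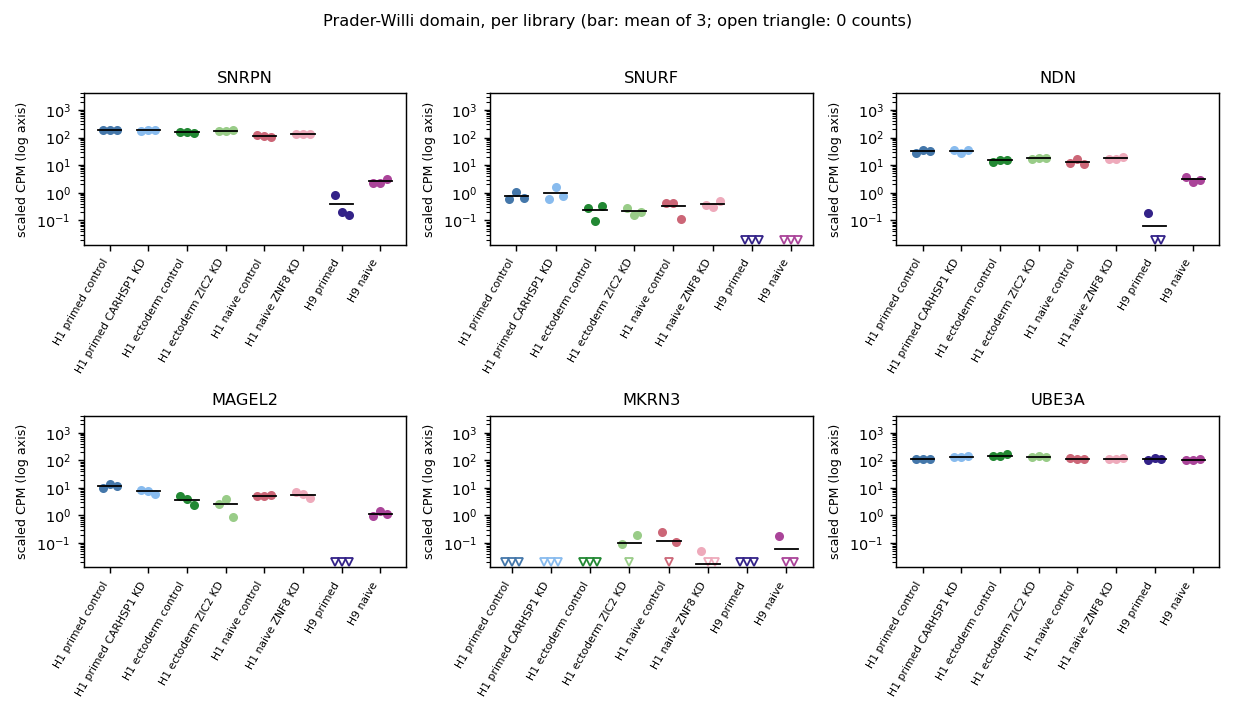
Level of 6 genes of the Prader-Willi domain in each library, in scaled CPM on a log axis, with 8 groups of 3 libraries. Bars are group means and open triangles mark libraries with 0 counts, drawn at 0.02 CPM. The 3 primed H9 libraries lie lowest for SNRPN, NDN and MAGEL2. The naive H9 libraries lie next for SNRPN and NDN, while for MAGEL2 replicate 3 of the ZIC2 knockdown (0.91 CPM) lies below them, and group means of UBE3A stay between 105 and 149 CPM.

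The 250 bases before the start of the 3 genes that carry this difference are shown, with copies of TGCCGC or its other strand, GCGGCA, in capitals. This hexamer is the letters that ZFP57 binds when the CpG is methylated. The first stretch (chr15:24954737-24954986, plus strand) lies at the start shared by SNURF and a SNRPN transcript in RefSeq, which is the known imprinting centre of the domain, and holds 2 copies and 12 CpG. The second (chr15:23687306-23687555, minus strand) precedes NDN and holds 1 copy and 30 CpG. The third (chr15:23647868-23648117, minus strand) precedes MAGEL2 and holds 0 copies and 8 CpG. They are read 5′ to 3′ from RefSeq promoter sequences of GRCh38.p14.
SNURF and SNRPN: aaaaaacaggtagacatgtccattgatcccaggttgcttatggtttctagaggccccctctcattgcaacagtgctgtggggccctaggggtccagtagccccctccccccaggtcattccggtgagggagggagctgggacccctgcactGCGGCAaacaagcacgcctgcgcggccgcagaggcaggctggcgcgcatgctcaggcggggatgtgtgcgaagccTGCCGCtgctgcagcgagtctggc
NDN: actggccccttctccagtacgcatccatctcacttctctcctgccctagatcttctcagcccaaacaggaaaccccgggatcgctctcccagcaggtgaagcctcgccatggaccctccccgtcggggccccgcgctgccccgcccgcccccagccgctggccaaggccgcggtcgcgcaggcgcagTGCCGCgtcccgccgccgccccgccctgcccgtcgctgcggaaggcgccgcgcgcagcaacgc
MAGEL2: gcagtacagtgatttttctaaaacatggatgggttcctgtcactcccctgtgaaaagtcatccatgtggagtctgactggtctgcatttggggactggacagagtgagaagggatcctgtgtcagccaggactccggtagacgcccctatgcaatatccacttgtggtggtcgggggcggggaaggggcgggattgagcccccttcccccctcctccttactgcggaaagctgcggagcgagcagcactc
The windows shown thus held 2, 1 and 0 copies, and a part of the hexamer in the difference between lines was not tested. RefSeq windows of 250 bases before and 50 after a start were found for 23 of the 36 genes. Of these genes, 14 had the hexamer on either strand in at least 1 window (60.9%), against 19.5% of all 27305 genes with a window. By window it was 22 of 52 (42.3%) against 16.7% of 35116, and members have more windows per gene, some of which overlap. Member windows also held more CpG, with a median of 18 against 14 over all windows, and the hexamer itself holds a CpG. The part of CpG content in these shares was not tested. Of the 14 genes with the hexamer, 6 were higher and 6 lower in naive H9 among 12 tested. Of the 9 without it, 3 were higher and 2 lower among 7 tested, where 25.4% of all genes were higher and 26.1% lower. In H1, 4 were higher and 6 lower of 12 with it, and 1 was higher and 3 lower of 6 without it, against 35.0% and 36.1% of all genes. A match is a description of letters and not of a bound site.

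SLC38A4 (chr12:46764761-46832408, minus strand), an amino acid transporter gene of liver and placenta, had the largest fall in naive cells among the members tested in each line. Primed H1 controls lay at 39.6, 43.5 and 44.4 CPM, and all 3 naive H1 control libraries had 0 counts. The level was at least 455-fold lower in naive H1 cells. In H9 it went from 16.4, 20.7 and 17.9 CPM to 0.443, 0.439 and 0.564 CPM, a 37.1-fold fall (log2 −5.21 ± 0.25, adjusted p = 3.14e-12). The naive ZNF8 knockdown had 1 count in 3 libraries, and ectoderm controls kept 28.3 to 40.9 CPM. The window before its RefSeq start (chr12:46825998-46826247, minus strand), which lies inside the longer annotated gene, is shown because the gene was nearly silent in every naive library. It holds 11 CpG and no copy of the hexamer.
SLC38A4: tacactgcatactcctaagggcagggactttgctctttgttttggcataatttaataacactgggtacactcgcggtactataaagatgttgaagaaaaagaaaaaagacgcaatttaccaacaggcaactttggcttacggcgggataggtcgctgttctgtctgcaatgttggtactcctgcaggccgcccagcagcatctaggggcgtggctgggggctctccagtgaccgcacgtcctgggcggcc
Counts were thus near 0 in every naive library and above 16 CPM in every primed library.

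In the IGF2-H19 domain on chromosome 11, H19 is a maternally expressed long noncoding RNA and IGF2 encodes a paternally expressed fetal growth factor. H19 (chr11:1995176-2001470) was seen at more than 1 count per group in H9 and in the ZNF8 knockdown only. It lay at 0.934, 0.705 and 0.755 CPM in primed H9 and rose to 5.05, 5.49 and 4.98 CPM in naive H9 (log2 2.65 ± 0.28, adjusted p = 2.52e-07). Primed H1 controls had 0 counts and naive H1 controls 1 count. IGF2 (chr11:2129112-2149603) rose in naive H1 controls to 4.20, 3.25 and 3.76 CPM from 0.297, 0.133 and 0.449 (log2 3.53 ± 0.50, adjusted p = 5.04e-09). In H9 it stayed below 0.7 CPM in all 6 libraries and was not tested. The log2 difference of naive H9 from naive H1 was −3.46 ± 0.53 (adjusted p = 1.36e-06), and −4.26 without replicate 2 of naive H9. H19 was thus seen in H9 and IGF2 in naive H1 controls.

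The DLK1-MEG3 domain on chromosome 14 holds DLK1, a paternally expressed inhibitor in the NOTCH pathway, and the maternally expressed MEG3 and MEG8. DLK1 (chr14:100725705-100738224) lay at 2.12, 2.52 and 1.51 CPM in primed and 3.10, 4.06 and 4.42 in naive H9 cells (log2 0.92 ± 0.28, adjusted p = 0.0091). In H1 it went the other way, from 1.56, 3.06 and 3.14 CPM to 0.257, 0.439 and 0.215 (log2 −3.01 ± 0.54, adjusted p = 1.48e-06). The difference of these changes was −3.91 ± 0.58 (adjusted p = 1.5e-06). MEG3 rose with DLK1 in naive H9, from 0.249, 0.202 and 0 CPM to 1.42, 1.43 and 0.94 (log2 2.95 ± 0.61, adjusted p = 0.000454). Without replicate 1 of primed H9 that change was 3.67. In H1 controls MEG3 had 0 counts in primed and 1 in naive cells. The opposite parental copies of this domain are the source of DLK1 and MEG3 by textbook knowledge, and both were higher in naive H9.

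In the KCNQ1-CDKN1C domain on chromosome 11, KCNQ1OT1 is a paternally expressed antisense RNA known to silence its neighbours on that copy, and KCNQ1, CDKN1C, PHLDA2 and SLC22A18 are expressed from the maternal copy. CDKN1C, a cell cycle inhibitor, went from 7.50, 8.51 and 6.91 CPM in primed to 19.2, 22.9 and 23.8 CPM in naive H1 controls (log2 1.52 ± 0.16, adjusted p = 2.73e-13). In H9 it went from 12.6, 10.1 and 12.8 to 6.38, 11 and 6.58 CPM (log2 −0.60 ± 0.20, adjusted p = 0.0145). The H9 groups overlapped, and that call was lost without replicate 1 or replicate 3 of naive H9 (adjusted p up to 0.0856). KCNQ1, a potassium channel gene, fell in both lines, by 3.49 ± 0.52 in H1 and 1.04 ± 0.28 in H9. Without replicate 3 of naive H1 controls the H1 change was −4.29. KCNQ1OT1 rose in H1 (log2 1.48 ± 0.37, adjusted p = 0.000344), as did PHLDA2, a placental growth regulator (1.03 ± 0.28), and neither passed in H9. SLC22A18, an organic cation transporter gene, rose in both lines, by 1.15 ± 0.30 in H1 and 0.96 ± 0.21 in H9. In H1, RNA assigned to KCNQ1OT1 rose while that of KCNQ1 fell and that of CDKN1C rose.

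PEG10, a paternally expressed gene derived from a retrotransposon and needed in the placenta, lay at 129, 153 and 132 CPM in primed and 170, 186 and 198 in naive H9 cells (log2 0.41 ± 0.09, adjusted p = 0.0011). In H1 it fell from 322, 328 and 324 to 196, 196 and 172 CPM (log2 −0.80 ± 0.05, adjusted p = 2.31e-23). Naive cells of both lines thus lay between 170 and 198 CPM, and H9 against H1 in naive cells gave a log2 difference of −0.01 ± 0.08 (adjusted p = 0.912). SGCE, its partner across a shared promoter region and a sarcoglycan gene, fell by 0.77 ± 0.13 in H1 only, with 0.02 ± 0.12 in H9, a difference that passed its own test (−0.79 ± 0.18).

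NNAT fell in naive cells of both lines, from 83.1, 75.4 and 94.9 to 23.5, 25 and 24.9 CPM in H1 and from 25.2, 26.4 and 26.5 to 14.5, 11.7 and 12.5 CPM in H9. BLCAP, an apoptosis-related gene within which NNAT lies, rose in H9 (log2 0.43 ± 0.11) and fell in H1 (−0.69 ± 0.09). MEST, a paternally expressed gene of mesoderm and fetal growth, fell in H1 (−0.45 ± 0.05) and in H9 (−0.23 ± 0.09, adjusted p = 0.0342). The H9 call was lost without replicate 1 of primed H9 or any 1 replicate of naive H9. COPG2, a coatomer subunit gene beside it, fell in both lines (−0.51 ± 0.07 in H1 and −0.31 ± 0.09 in H9).

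Of the members alone in their domain, IGF2R, the receptor that clears IGF2, rose in H1 from 205, 214 and 213 to 405, 408 and 414 CPM (log2 0.94 ± 0.04) and in H9 from 195, 222 and 215 to 237, 247 and 261 CPM (0.23 ± 0.08, adjusted p = 0.0298), and the H9 call was lost without replicate 1 of primed or replicate 2 or 3 of naive H9 (adjusted p up to 0.115). GRB10, an adaptor that dampens insulin signalling, fell in both (−0.75 ± 0.06 in H1 and −0.60 ± 0.08 in H9). PLAGL1, a zinc finger growth suppressor, also fell in both (−3.11 ± 0.60 and −1.72 ± 0.46), and its H1 change was −5.19 without replicate 1 and −2.51 without replicate 2 of naive H1 controls. NAP1L5, a histone chaperone relative, rose in both (0.74 ± 0.31 and 0.93 ± 0.27), with the H1 call lost without replicate 2 or 3 of the primed or replicate 2 of the naive controls (adjusted p up to 0.11). ZNF597, a maternally expressed zinc finger gene, rose in H1 (1.35 ± 0.17, against 0.35 ± 0.19 in H9), and the difference passed its test (1.01 ± 0.24). DIRAS3, a paternally expressed RAS-like tumour suppressor, rose in H1 from 0.668, 0.133 and 0.449 to 2.32, 5.35 and 3.76 CPM (3.01 ± 0.48) and had 0 counts in primed and 8 in naive H9 cells.

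ZDBF2, a zinc finger gene expressed from the paternal copy, lay at 60, 81.7 and 65.3 CPM in primed H9 against 25.2, 24.5 and 34.5 in naive H9 (log2 −1.30 ± 0.14, adjusted p = 2.67e-07). In H1 it did not pass (24.5 ± 3.86 against 24.1 ± 0.583 CPM, SD, n = 3), and the difference between lines was 1.28 ± 0.19. INPP5F, an inositol phosphatase gene, rose in H9 (0.39 ± 0.08) and gave 0.06 ± 0.04 in H1. GNAS moved little, by −0.33 ± 0.08 in H9 and 0.13 ± 0.04 in H1. The H9 call was lost when trends with GC and length were removed (adjusted p = 0.0715) and the H1 call with upper-quartile scaling (adjusted p = 0.0622). L3MBTL1, a paternally expressed chromatin reader, differed by line rather than state, with 19.6, 18.9 and 18.3 CPM in primed and 13.6, 16.7 and 15.4 in naive H9 cells against 2.00, 1.20 and 1.26 in primed and 1.03, 1.32 and 1.40 in naive H1 controls. Its fall in naive H9 (−0.33 ± 0.13, adjusted p = 0.0463) was kept under only 2 of 13 alternatives, with DESeq2 among those that lost it.

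Between the primed groups, 7 members were higher and 10 lower in H9 of 30 tested, against 27.5% higher and 29.9% lower of all genes. Between the naive groups 11 were higher and 12 lower, against 34.2% higher and 33.3% lower. Marker sums differed beside these comparisons. Summed CPM of 8 endoderm and yolk sac markers was 173 to 198 in naive and 5.27 to 6.01 in primed H1 controls, with SOX17, APOA1 and TTR at 0 in naive ones, against 7.24 to 8.6 and 0.755 to 1.31 in H9. That of 5 mesoderm markers was 132 to 154 in naive and 7.18 to 8.64 in primed H1 controls, against 11.3 to 15.7 and 5.54 to 8.72 in H9. That of 11 trophoblast and amnion markers was 80.7 to 89.9 and 20.4 to 25.3 in H1, against 6.74 to 12.1 and 53.0 to 62.5 in H9. In H9, 9 neural ectoderm markers summed to 41.2 to 46.4 CPM in naive and 139 to 151 in primed cells, and 10 fibroblast markers to 152 to 178 and 262 to 347. Of the endoderm and yolk sac markers, 3 were tested between the H1 states, and 1 was higher and 2 lower in naive cells. Of the mesoderm markers 2 were higher and 1 lower of 3 tested, and of the trophoblast and amnion markers 6 were higher and 1 lower of 8. In naive against primed H9, 1 was higher and 2 lower of 4 trophoblast and amnion markers tested. Of neural ectoderm markers there 1 was higher and 3 lower of 5, and of fibroblast markers 1 was higher and 2 lower of 3. A sum thus need not describe its list as a whole. Whether the sums reflect cells of these types, and their part in the changes of imprinted genes, was not tested.

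**Figure D4:**
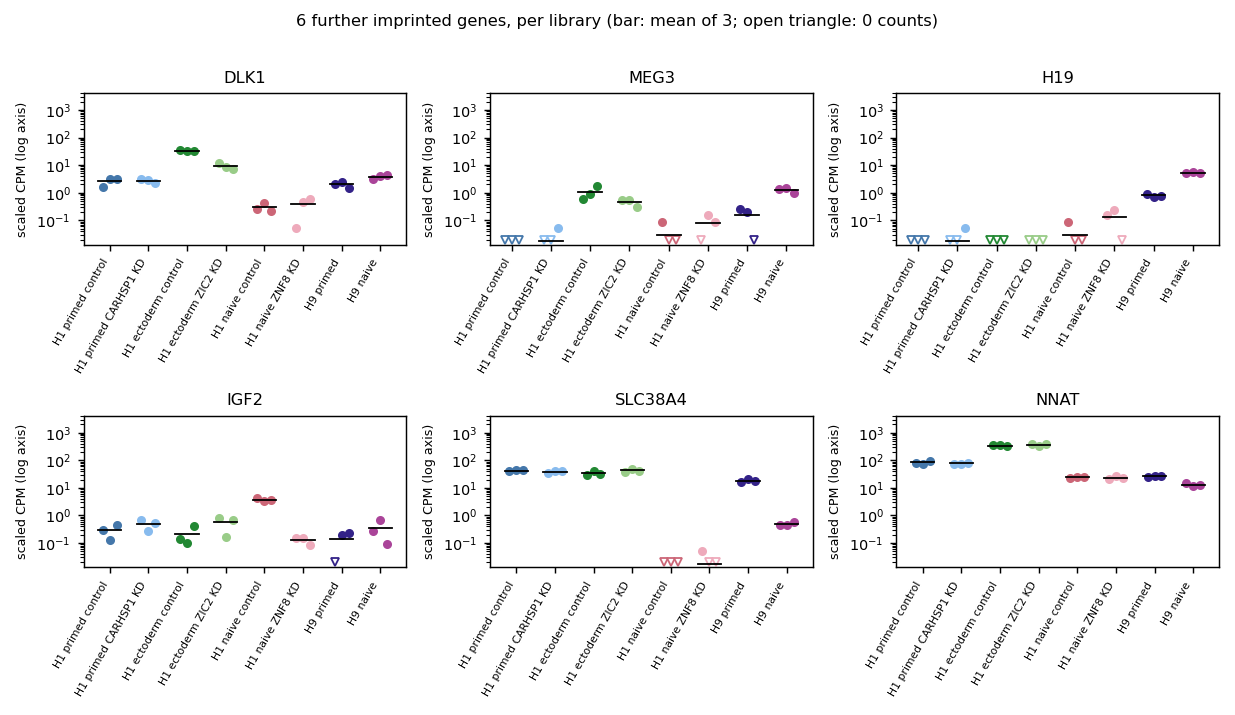
Level of DLK1, MEG3, H19, IGF2, SLC38A4 and NNAT in each library, in scaled CPM on a log axis, with 8 groups of 3 libraries. Bars are group means and open triangles mark libraries with 0 counts, drawn at 0.02 CPM. SLC38A4 drops in the naive groups, IGF2 is high in naive H1 controls, H19 is highest in naive H9, and DLK1 and NNAT are highest in the ectoderm groups.

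Day 2 ectoderm was compared with primed H1 controls, which are the same 3 libraries used above. Of 26 members tested, 12 were higher and 10 lower in ectoderm, against 30.7% higher and 32.1% lower of all 15409 genes. The paternally expressed genes were 8 higher and 3 lower of 13 tested. The 3 lower ones, SNRPN, NDN and MAGEL2, all lie in the Prader-Willi domain. Of the maternally expressed ones 4 of 5 tested were lower. These were KCNQ1, CDKN1C, PHLDA2 and SLC22A18, all of the KCNQ1-CDKN1C domain, so the classes cannot be told apart from the domains. CDKN1C kept its call under 7 of 13 alternatives. That call was lost with DESeq2, without replicate 1 or 2 of the primed or replicate 2 or 3 of the ectoderm controls, and with trends in GC and length removed, where the change was 0.17 (adjusted p up to 0.538). DLK1 rose 13.3-fold to 34.5, 32.4 and 33.9 CPM (log2 3.74 ± 0.19, adjusted p = 1.57e-16). NNAT rose 4-fold to 356, 353 and 318 CPM (2.00 ± 0.07), and NAP1L5 rose 2.60-fold (1.38 ± 0.29). These libraries stood clear of every primed control library, which adds nothing to calls made on the same libraries.

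PHLDA2 fell from 3.49, 2.26 and 2.69 CPM to 0, 0.098 and 0.416 (log2 −3.76 ± 0.61, adjusted p = 4.50e-06), with a change of −5.34 without replicate 3 of the ectoderm controls and −2.997 with trends in GC and length removed. SLC22A18 changed by −1.74 ± 0.47, and by −1.16 with those trends removed. MAGEL2 fell by 1.71 ± 0.24, NDN fell by 1.09 ± 0.13 and KCNQ1 fell by 1.07 ± 0.37. The KCNQ1 call was lost without replicate 1 of the primed controls and when trends with GC and length were removed (adjusted p up to 0.394). MEG3 had 34 counts in ectoderm controls and 0 in primed controls, at least 12.5-fold higher, without a test. RTL1, a retrotransposon-derived placental gene of the same domain, had 13 counts against 1.

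CARHSP1, an RNA-binding protein, was knocked down in primed cells. Of 26 members tested, 3 were higher and 1 lower, against 10.3% higher and 9.87% lower of all 15642 genes. PEG10 rose to 429, 421 and 436 CPM from 322, 328 and 324 (log2 0.40 ± 0.04, adjusted p = 6.11e-09), and UBE3A to 131, 133 and 137 CPM from 108, 113 and 112 (0.28 ± 0.06, adjusted p = 0.000423). SGCE rose by 0.33 ± 0.10 (adjusted p = 0.0192) and MAGEL2 fell to 8.34, 7.68 and 6.20 CPM from 10.2, 13.7 and 11.6 (−0.67 ± 0.17, adjusted p = 0.0051). The knockdown libraries of these 4 genes did not overlap their controls. The genes were picked by the test on the same libraries, so this adds nothing to their calls. The SGCE and MAGEL2 calls were lost when all groups of the table were fitted together, and the SGCE call also without replicate 2 of the knockdown or without replicate 1 or 2 of the controls (adjusted p up to 0.179).

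ZNF8 encodes a zinc finger protein. In naive cells labelled as its knockdown, 6 of 24 members tested were higher and 1 lower, against 11.9% higher and 12.3% lower of all 15323 genes. ZNF8 RNA itself did not pass the test in these libraries. IGF2 fell to 0.154, 0.157 and 0.0869 CPM from 4.20, 3.25 and 3.76 in the naive controls, 25.8-fold lower (log2 −4.69 ± 0.51, adjusted p = 3.20e-09). All 3 knockdown libraries lay below every naive control library, which adds nothing to the call made on them. Primed H1 controls held 0.133 to 0.449 CPM. GRB10 rose to 126, 141 and 120 CPM from 92.6, 95.7 and 83.4 (0.49 ± 0.07, adjusted p = 3.58e-07), PEG10 to 222, 226 and 237 CPM from 196, 196 and 172 (0.26 ± 0.06, adjusted p = 0.000447). PHLDA2 (0.54 ± 0.19), NDN (0.39 ± 0.14), SNRPN (0.21 ± 0.06) and IGF2R (0.15 ± 0.05) also passed, and each lost its call without 1 or more single libraries, PHLDA2 and NDN also with DESeq2. Beside these values, the summed naive markers were 624 to 643 CPM in the knockdown against 801 to 825 in the control, and trophoblast and amnion markers 33.6 to 37.7 against 80.7 to 89.9. Their part in the changes was not tested.

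Knockdown of ZIC2, a zinc finger factor of early neural fate, in day 2 ectoderm gave 4 higher and 2 lower members of 25 tested, against 15.3% higher and 12.8% lower of all 15013 genes. DLK1 fell 3.62-fold to 12, 8.84 and 6.98 CPM from 34.5, 32.4 and 33.9 (log2 −1.86 ± 0.16, adjusted p = 1.03e-08), which left it above the primed controls. PLAGL1 fell by 1.59 ± 0.48 (adjusted p = 0.016), and that call was lost without replicate 1 of the knockdown or replicate 1 of the control (adjusted p up to 0.127). PEG10 rose to 467, 433 and 469 CPM from 384, 398 and 370 (0.24 ± 0.06, adjusted p = 0.0034). SLC38A4 (0.36 ± 0.13), SNRPN (0.21 ± 0.07) and GNAS (0.17 ± 0.05) passed as higher, each losing its call without 1 or more single libraries, and GNAS had the opposite sign, −0.070, when trends with GC and length were removed. The summed neural ectoderm markers were 697 to 763 CPM in the knockdown against 960 to 1110 in the control, and the part of that shift in the DLK1 change was not tested. PEG10 was the member that passed as higher under each of the 3 knockdowns, whose comparisons share no library, with changes of 0.40, 0.26 and 0.24. PEG10 was picked from the members by these calls, and the share of all genes that passed as higher under all 3 was not counted. The overlap is therefore not shown to be particular to PEG10.

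**Figure D5:**
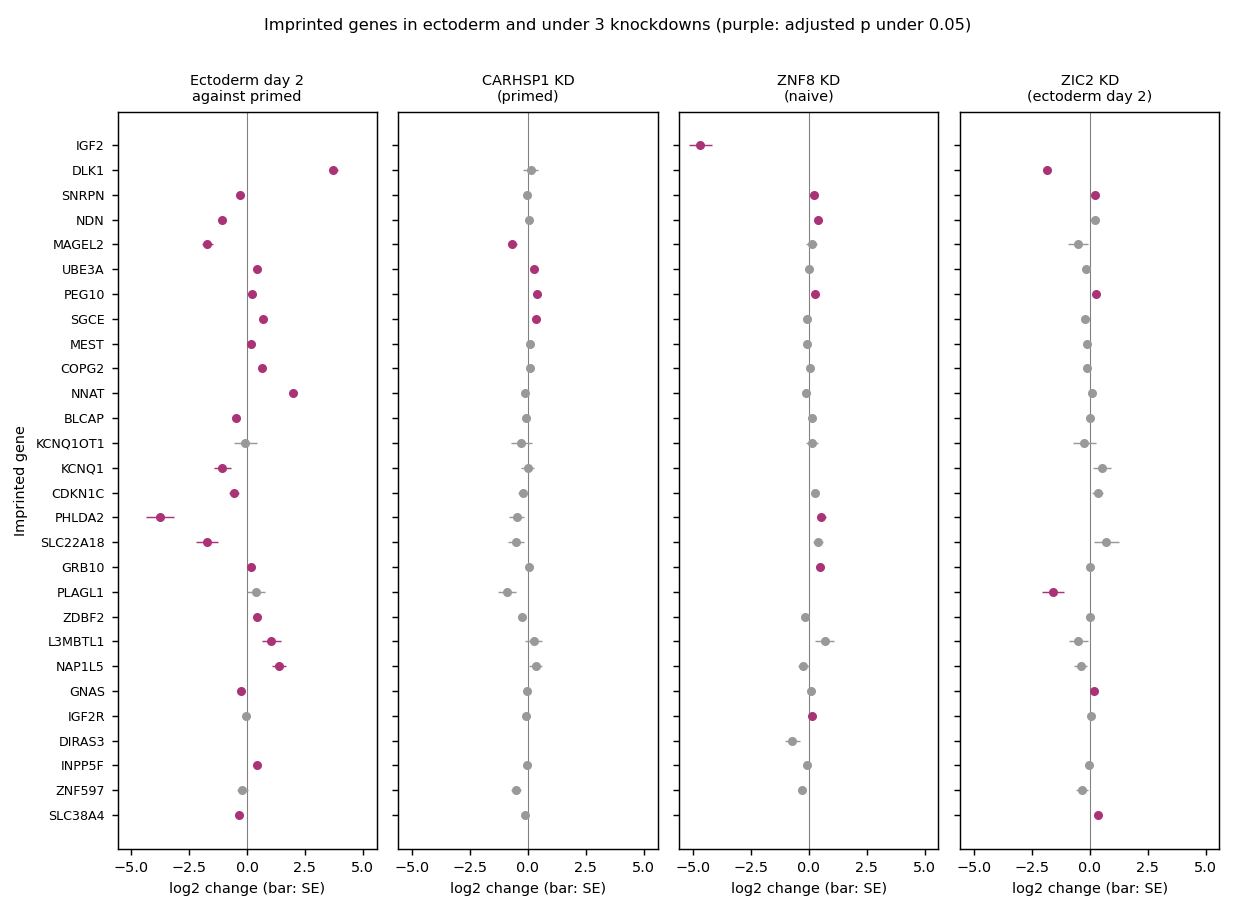
Log2 change of each tested imprinted gene with its SE (edgeR) in day 2 ectoderm against primed H1 controls and in the 3 knockdowns against their nontargeting controls, in 4 panels. Purple points passed at an adjusted p under 0.05. DLK1 and NNAT lie far right and PHLDA2 far left in ectoderm, IGF2 lies far left under ZNF8 knockdown, and DLK1 under ZIC2 knockdown.

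Beyond the 36 genes, a further list of 76 human genes reported as imprinted or lying in imprinted domains had 69 with a row. In H9, 9 were higher and 10 lower in naive cells of 32 tested, and in H1 11 were higher and 17 lower of 36. Of all genes, 25.4% were higher and 26.1% lower in H9, and 35.0% and 36.1% in H1. Among those with the smallest adjusted p upward in H9 were NLRP2, a maternal-effect inflammasome-family gene (56.6 to 244 CPM), LPAR6, a receptor gene inside RB1 (0.669 to 16.6), SNHG14, CD81, a tetraspanin (181 to 358), and SVOPL (2.18 to 4.98). In H1, NLRP2, LPAR6, SNHG14 and CD81 were also higher and SVOPL did not pass (adjusted p = 0.576). Downward in H9 these were HM13, CALCR, PPP1R9A, MAGI2, GNAS-AS1 and DLGAP2. In H1, HM13, CALCR, MAGI2 and GNAS-AS1 were also lower, PPP1R9A was higher (0.37 ± 0.12) and DLGAP2 did not pass (adjusted p = 0.119).

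Of 20 genes known to place, keep or erase methylation at imprinted regions, 7 were higher and 8 lower in naive H9 of 18 tested, and 9 higher and 7 lower in naive H1 of 18, against 25.4% and 26.1% of all genes in H9 and 35.0% and 36.1% in H1. DNMT3L, a cofactor of de novo methylation, rose from 0.31 to 12.7 CPM in H9 and from 0.139 to 53.7 in H1. DPPA3, which blocks the maintenance factor UHRF1, rose from 0.197 to 16.7 CPM and from 2.49 to 20. UHRF1 fell in both lines (−0.81 ± 0.16 and −0.77 ± 0.09), as did DNMT1, the maintenance methyltransferase (−0.49 ± 0.08 and −0.92 ± 0.05), and DNMT3B (−0.44 ± 0.07 and −1.09 ± 0.04). TET2, a methylcytosine oxidase gene, fell in H9 from 6.75 to 2.60 CPM and rose in H1 from 1.68 to 29. ZNF445 also fell in H9 (−0.52 ± 0.11) and rose in H1 (0.54 ± 0.08). ZFP57 was low, with means of 1.02 CPM in primed and 1.88 in naive H9 and 1.23 and 0.466 in H1, while TRIM28 passed in neither line (adjusted p = 0.18 and 0.789). In the ZNF8 knockdown 9 of 16 tested were lower, against 12.3% of all genes, among them DNMT3L (53.7 to 16.2 CPM), DPPA3 (20 to 5.08) and NLRP7, a maternal-effect imprinting gene (249 to 70.4). DNMT3L and DPPA3 are also on the list of 11 naive markers, of which 8 were lower in this comparison.

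Several members overlap a neighbour in the annotation. SNRPN overlaps SNURF and SNHG14 on its strand, and PEG10 and SGCE, MEST and COPG2, NNAT and BLCAP, KCNQ1 and KCNQ1OT1, RTL1 and MEG8, and UBE3A and SNHG14 overlap on opposite strands. The libraries were made with a stranded kit, but how the counting treated strand is not known here, so the reads of such pairs are uncertain.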

How the data were processed

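Polyadenylated RNA of 24 libraries was sequenced with a stranded kit, per the labels' protocols. The authors aligned reads to GRCh38 with HISAT2, per the submitters' processing notes. They deposited whole-number read counts for 60671 genes per table, per the file headers, with no normalization, and neither header nor label names the counter or annotation. Of the IDs, 60401 could be given a symbol, and 58453 are in GENCODE 29, which gave positions. Gene lengths are those that the authors deposited with the counts. Another 27 columns of per-sample values were not used. CPM and RPKM were computed here from the counts.

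Each comparison was fitted to its 2 groups alone with edgeR 4.0.16 in R 4.3.3 (TMM scaling, filterByExpr, quasi-likelihood F test). P-values were Benjamini-Hochberg adjusted over all genes tested, with a threshold of 0.05. The contrasts between lines come from 1 fit of the 12 libraries of primed and naive H9 and H1 controls. SE is the absolute log2 change divided by the root of F. For groups with 0 counts the bound uses a floor of 3 counts over the group. The scripts were tested on simulated data. The ranges of total counts are in the report, and intervals cover counting error only.

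The members, the lists of other imprinted, imprint maintenance and marker genes, and the tests were chosen with earlier results of these data known. Every member is named in the comparisons of the states. Elsewhere, members that passed are named, up to the 8 with the largest change and, between lines, the 10 with the largest difference. Of other imprinted genes, the 6 with the smallest adjusted p in each direction in H9 are named, except 1 that is not reported here. GNAS and CDKN1C in further comparisons and single line differences were added after their values were seen. Alternatives were DESeq2 1.42.0, its size factors, upper-quartile scaling, no filter, all groups in 1 fit, a replicate block, leaving out each library and, added after seeing the data, removal of trends with GC content and length.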

Additional observations from a re-analysis of the deposited data

Results flagged for a closer look

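For 17 of the 30 members tested, the naive minus primed change differed between H1 and H9 in the joint fit (edgeR, adjusted p under 0.05). Values are the H1 change minus the H9 change on the log2 scale. In the Prader-Willi domain the difference was −3.26 for SNRPN, −6.38 for NDN and −7.88 for MAGEL2. It was −6.69 for SLC38A4. The last 3 of these genes have groups with at most 3 counts, so that their fitted values depend on the prior count. Without replicate 1 of primed H9 the difference was −4.53 for SNRPN and −9.31 for NDN. DLK1 had −3.91, KCNQ1 −2.46 (−3.26 without replicate 3 of naive H1 controls), PEG10 −1.21, BLCAP −1.11, SGCE −0.79, NNAT −0.79 and INPP5F −0.33. The H1 change lay above the H9 change by 2.13 for CDKN1C, 1.28 for ZDBF2, 1.27 for KCNQ1OT1, 1.01 for ZNF597, 0.72 for IGF2R and 0.46 for GNAS. The KCNQ1OT1 call was lost without replicate 3 of primed H1 controls or replicate 2 of primed H9 and when trends with GC and length were removed (adjusted p up to 0.072). Line, doxycycline and handling cannot be told apart in these differences.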

How the results depend on the processing

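Of the members called, 18 of 23 in naive against primed H9, 22 of 24 in H1, 13 of 22 in ectoderm, 2 of 4 under CARHSP1, 3 of 7 under ZNF8 and 2 of 6 under ZIC2 knockdown kept their call under every alternative run. The same held for 16 of 17 in the difference between lines, 16 of 17 between primed lines and 22 of 23 between naive lines. With trends in GC content and length removed, log2 values of opposite sign that passed the test were 0.22 for UBE3A in naive against primed H9 (adjusted p = 0.00543) and 0.16 in naive H9 against H1 (0.0177), and 0.16 for GNAS in ectoderm (0.00348) and 0.14 under CARHSP1 knockdown (0.0108). Those that did not pass were 0.17 for CDKN1C in ectoderm and −0.070 for GNAS under ZIC2 knockdown. Members lower under CARHSP1 knockdown numbered 0 with all groups in 1 fit and 4 with those trends removed, and members lower under ZNF8 knockdown 2 with those trends removed. Leaving out single libraries gave 1 to 2 lower under CARHSP1, 2 to 6 higher and 1 to 2 lower under ZNF8, and 1 to 4 higher and 1 to 2 lower under ZIC2 knockdown. The lowest counts were 2 without ZNF8 knockdown replicate 1, 3 without its replicate 2 or naive control replicate 3, and, for ZIC2, 1 without knockdown replicate 3 and 2 without ectoderm control replicate 3. The cause was not tested. Upper-quartile scaling moved the median of all genes in naive H9 against H1 to 0.13.

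Whether replicate numbers pair the samples is not known here. Correlations of same-numbered deviations ran from −0.30 to 0.37. They were all positive under CARHSP1 (0.055 to 0.072) and ZIC2 knockdown (0.007 to 0.105) and of mixed sign in each other comparison checked. Naive H9 replicates 1, 2 and 3 had 0.37, −0.30 and −0.21 with the same-numbered primed H9 library. With other-numbered ones they had at most −0.15, 0.39 and 0.42, and the replicate block follows the numbers only. With the replicate block, members called were 12 higher and 10 lower in naive H9, where L3MBTL1 lost its call. KCNQ1OT1 lost its call between primed lines (adjusted p = 0.11) and MEST between naive lines, and IGF2 between naive lines moved from −3.46 to −4.51. Genes with few counts, such as MEG8, RTL1, SNURF, MKRN3, PEG3 and ZIM2, could not be tested between the states at this depth.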
